A study of Mus musculus with 8 samples.

Results

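The Foxa1, Foxa2 and Foxa3 loci were examined in the DNA methylation profiles of mouse small intestinal epithelium at 2 embryonic stages and in 2 adult cell types. The loci were defined as 3 intervals of the mm9 genome, on chromosome 12 from 58500000 to 58750000 (Foxa1, 250 kb), on chromosome 2 from 147800000 to 147940000 (Foxa2, 140 kb) and on chromosome 7 from 19560000 to 19640000 (Foxa3, 80 kb). A peak is a stretch where sequenced fragments (tags) piled up, and peaks of any library that shared at least 1 bp were merged into regions. The loci held 119 of the 475861 regions of the whole series, 67 at Foxa1, 23 at Foxa2 and 29 at Foxa3. The loci were chosen by a rule that uses measured values, the presence, tag counts and fold enrichment of these same peaks by group, so the values that follow are descriptions and no test was made on them.

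FOXA1, FOXA2 and FOXA3 are forkhead transcription factors, known first as hepatocyte nuclear factors 3. They are called pioneer factors because they bind sites in closed chromatin and open them for other factors. Foxa2 is needed early for node, notochord and endoderm formation, and Foxa1 and Foxa2 act together in the differentiation of goblet and enteroendocrine cells in the gut. Foxa3 is active in liver, pancreas and gut endoderm. Methylated cytosine at CpG sites is bound by methyl-CpG-binding domain (MBD) proteins, and dense methylation of promoters goes with stable silencing, while many developmental regulator genes lie in CpG-rich stretches that stay free of it.

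In MBD sequencing, methylated fragments are pulled down by an MBD protein and sequenced, so a peak marks relatively dense methylation and gives no percentage per site. All mice were of a mixed C57BL/6 CD1 strain, and each of the 4 groups had 2 biological replicates. Embryonic epithelial cells of E12.5 and E14.5 (named by the embryonic day) were sorted as EpCAM-positive, CD31-negative and CD45-negative cells, and the genotype and sex of the embryos were not given in the sources used here. Both adult groups came from Lgr5EGFP-Cre-ERT males at postnatal day 60. Adult stem cells (ISC) were sorted for high EGFP from the Lgr5 allele, Lgr5 being a marker of crypt base stem cells. Enterocytes, the absorptive cells of the villus, were gated by the same surface proteins as the embryonic cells. As described, that gate holds no marker that parts absorptive from secretory epithelial cells. Peak lists hold no expression, so cell types could not be checked against marker genes.

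The libraries had 31438314 to 55442400 tags and lists of 84990 to 338262 peaks. The E12.5 libraries were the deepest and had the shortest lists, with 9.84% and 7.46% of their tags in peaks, against 23.8% to 38.9% in the other 6 libraries. Peaks were shortest in E14.5 replicate 2, with a median of 272 bp, and longest in enterocyte replicate 1, with 849 bp. The fragment length fitted by the peak caller was 57 bp and 164 bp in this pair of libraries and 97 to 126 bp in the other 6. A missing peak therefore says no more than that the pile-up fell short of the threshold in that list, and differences in peak width or number between groups cannot be told apart from these library properties. With 2 libraries against 2, an exact two-sided permutation test cannot fall below p = 0.333, so no such comparison could have passed.

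MBD capture depends on how many CpG sites a fragment holds, so the upstream sequences of the 3 genes are shown with each CpG in capitals. They are the 250 bases before an annotated start, 5′ to 3′, from the RefSeq annotation of GRCm38.p6, all on the minus strand. All 3 genes matched by symbol. That build is not the mm9 of the peaks, so positions of the 2 kinds must not be set against each other, and no peak was placed on a promoter.

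Foxa1, chr12:57546112-57546361: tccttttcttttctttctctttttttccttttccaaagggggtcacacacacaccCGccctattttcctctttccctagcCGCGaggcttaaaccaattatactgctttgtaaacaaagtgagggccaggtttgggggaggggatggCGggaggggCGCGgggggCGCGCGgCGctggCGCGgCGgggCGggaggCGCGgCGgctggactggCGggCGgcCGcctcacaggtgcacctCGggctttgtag

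Foxa2, the outermost of 3 annotated starts, chr2:148046970-148047219: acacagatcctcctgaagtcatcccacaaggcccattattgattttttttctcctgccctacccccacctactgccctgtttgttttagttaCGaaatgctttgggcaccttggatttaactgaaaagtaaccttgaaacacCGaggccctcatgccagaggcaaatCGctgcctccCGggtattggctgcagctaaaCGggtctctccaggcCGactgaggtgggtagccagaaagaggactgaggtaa

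Foxa3, chr7:19023540-19023789: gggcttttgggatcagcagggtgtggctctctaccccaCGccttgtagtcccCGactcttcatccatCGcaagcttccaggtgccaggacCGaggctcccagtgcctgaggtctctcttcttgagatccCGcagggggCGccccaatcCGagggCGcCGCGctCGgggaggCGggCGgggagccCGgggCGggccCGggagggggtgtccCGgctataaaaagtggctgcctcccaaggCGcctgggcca

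The Foxa1 stretch holds 21 CpG sites and the Foxa3 stretch 18, and 16.3% and 21.7% of the 32851 upstream stretches in that annotation hold as many. The outermost Foxa2 start has 6, the median of all stretches, and the other 2 Foxa2 starts have 20 and 13. In the gene order of the same annotation, the nearest protein-coding neighbours are Mipol1 and Ttc6 for Foxa1, Pax1 and Sstr4 for Foxa2, and Irf2bp1 and Sympk for Foxa3.

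Over the 3 loci, 7 regions were called in each of the 4 adult libraries while every embryonic list lacked them, 5 of them at Foxa1 and 2 at Foxa2. These adult-only regions were 5.88% of the 119, beside 0.402% of all regions in the series. One region, at Foxa3, was embryonic only, 0.840% of the 119 beside 0.139% of all regions. Because the loci were chosen with such regions known, these shares support nothing by themselves. The flank counts that follow have the same limit and add no support. In the flanks of the same length, adult-only regions numbered 1 of 53 and 0 of 43 beside Foxa1, and 0 of 25 and 0 of 16 beside Foxa2. Beside Foxa3 the flanks held 25 and 18 regions, and none was embryonic only. The adult-only count was 2 with all lists shortened to the same number of best-scoring peaks, 3 with the higher-scoring 50% of each list, and 7 to 10 with each library left out in turn. The embryonic-only count was 3 without ISC replicate 2, 2 without E12.5 replicate 1 and 1 without any other single library.

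At Foxa1, the strongest region of the locus had no called peak in any embryonic library. It lay at 58649136 to 58652359 and spanned 3224 bp, with 1 peak in each adult library. Tags were scaled to RPM, the tags in peaks of a region per 1000000 tags of the library. The region held 5.43 and 7.32 RPM in the ISC libraries and 6.64 and 8.79 RPM in the enterocyte libraries. The ranges of the 2 adult cell types overlapped, with a mean of 6.37 ± 1.33 for stem cells and 7.72 ± 1.52 for enterocytes (SD, n = 2 each). Scaled to the tags in regions called in all 8 libraries, both enterocyte values lay above both ISC values, by 1.16-fold in the means. By the score of the caller, its peaks stood at the 99.8 to 99.9 percentile of all 4 adult lists, which made it the first of the 1911 adult-only regions when these are ranked by the lowest of their percentiles, and the third by length. The authors' fold enrichment over the local background was 5.27 to 6.27. In the embryonic lists the nearest peak lay 7025 bp away in E14.5 replicate 2 and 14572 to 46420 bp away in the other 3. The weakest peaks of any kind in the E14.5 lists held 15 and 12 tags, while the adult peaks here held 176 to 344. The peaks of the adult libraries differed in extent. In enterocytes they covered 97.4% and 98.1% of the region, and in ISC 73.8% and 70.4%, starting at 58649869 and 58649986.

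**Figure D1:**
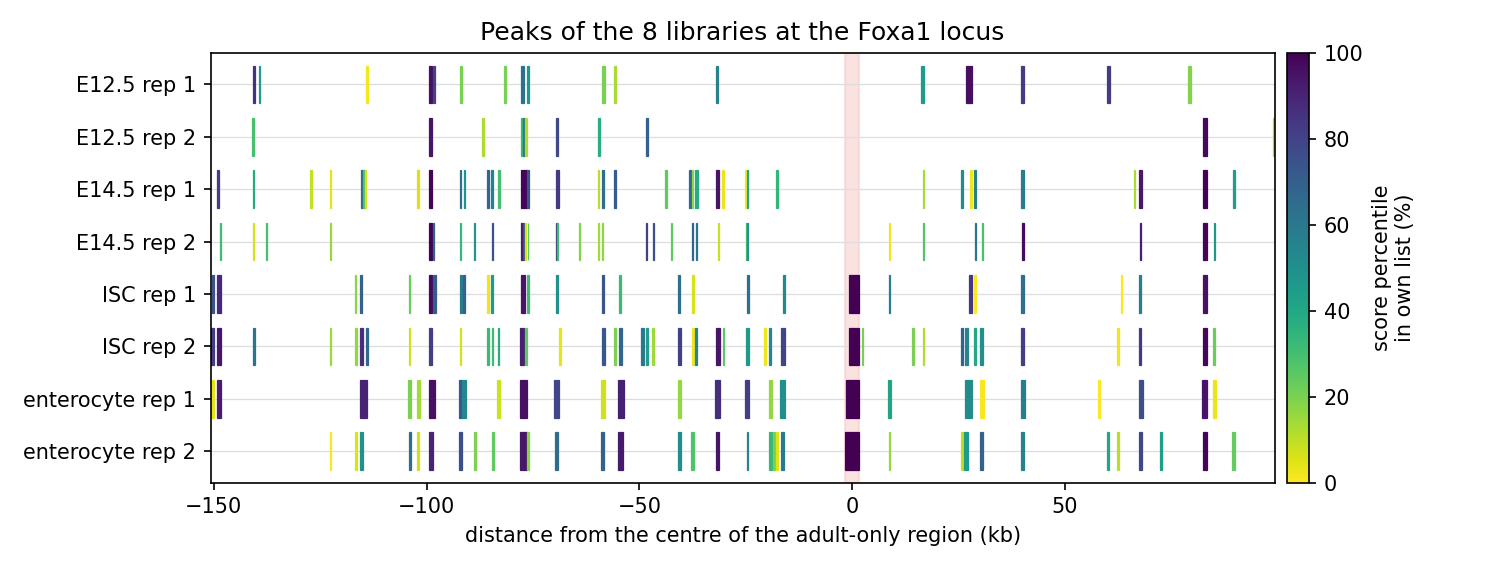
Peaks at the Foxa1 locus, 1 row per library, with the horizontal axis in kb from the centre of the adult-only region (shaded) and colour giving the score percentile of each peak in its own list. The 4 adult libraries have a wide, dark peak at 0 where the 4 embryonic libraries have none, and all 8 rows are empty for 14.2 kb to its left.

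The other 4 adult-only regions of Foxa1 were weaker. That at 58595741 to 58597042 held 1.02 and 1.59 RPM in ISC and 2.70 and 2.61 in enterocytes. Both enterocyte libraries lay above both ISC libraries by RPM (2.03-fold, and 1.98-fold when scaled to the shared regions). Enterocyte peaks were also wider there, covering 100% and 91.9% of the region, against 40.9% and 57.1% for the ISC peaks. Fold enrichment overlapped, at 4.34 and 6.44 for enterocytes and 5.40 and 4.47 for ISC. The part of peak width in this RPM difference was not tested. That at 58609704 to 58610524 held 1.14 and 1.75 in ISC and 1.36 and 1.35 in enterocytes, within the ISC range, while scaled to the shared regions both enterocyte values lay below both ISC values (0.913 of the mean). Those at 58633741 to 58634921 and 58546379 to 58547115 fall outside the rule for naming regions and are named because they belong to this count. They held 0.925 to 1.61 and 0.636 to 1.02 RPM over the adult libraries. Embryonic peaks came much closer to some of these than to the strongest region, at 520 and 522 bp from the region at 58595741 in E12.5 replicate 1 and E14.5 replicate 1, and at 538 bp from the one at 58633741 in E14.5 replicate 1.

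No library had a peak between the adult-only regions ending at 58634921 and starting at 58649136. This empty stretch of 14.2 kb was the second longest of the locus. The longest, 17.3 kb, ran from 58691210 to 58708478. Of all stretches between neighbouring regions on the autosomes, whose median was 2.19 kb, 5.77% were at least as long as the first and 4.31% as the second. In the embryonic lists alone the empty stretch around the strongest adult region ran from 58633204 to 58659383, 26.2 kb, and in the E12.5 lists alone it ran from 58619216 to 58666930, 47.7 kb. Lists with fewer peaks have longer gaps: 2.67% of autosomal gaps in the embryonic lists and 5.14% in the E12.5 lists were as long.

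Among the 67 Foxa1 regions, 2 were called in all 8 libraries, 2.99% beside 5.16% of all regions in the series. The one at 58551240 to 58552848 held 1.96 and 1.05 RPM at E12.5, 2.34 and 2.67 at E14.5, 3.02 and 1.59 in ISC and 2.65 and 1.69 in enterocytes. Its peaks stood at the 81.3 percentile or above in every list. Adult and embryonic values overlapped, and the ratio of their means, 1.12, turned to 0.829 when tags were scaled to the regions shared by all 8 libraries. At the second, from 58572752 to 58574826, the values were 1.58 and 1.79 at E12.5, 4.66 and 3.04 at E14.5, 2.59 and 2.77 in ISC and 2.77 and 3.70 in enterocytes. There too the adult and embryonic ranges overlapped, and the ratio of 1.07 turned to 0.805.

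At Foxa1, 23 of the 67 regions had a peak in both libraries of 1 group and in neither of another, 34.3% beside 35.6% of all regions in the series, which is near the background. The region at 58718034 to 58718974 was called in all libraries but the 2 of E12.5, with 1.48 and 1.12 RPM at E14.5, 0.894 and 1.18 in ISC and 1.43 and 1.23 in enterocytes. At 58501514 to 58502552, 5 libraries had a peak, with 0.984 and 0.487 at E14.5, 1.54 and 2.19 in ISC and 1.75 in enterocyte replicate 1, and both E12.5 libraries had none. The region at 58500127 to 58500798, called in both ISC libraries with 1.05 and 1.43 and in enterocyte replicate 1 with 0.808, had no embryonic peak. At 58679373 to 58679910, E14.5 (1.07 and 0.831) and ISC (1.05 and 1.11) had peaks and E12.5 and enterocytes had none. The region at 58565950 to 58566511 was called in both E14.5 and both ISC libraries and in enterocyte replicate 2, at 0.717 to 0.984 RPM. At these last 2 regions the values of the calling groups overlapped.

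At Foxa2, 2 strong neighbouring regions had peaks in all 4 adult libraries. One had no called embryonic peak, and the other had peaks of lower RPM at E14.5 and none called at E12.5. The region at 147863711 to 147865198 was adult only. It held 1.11 and 3.09 RPM in ISC and 3.00 and 3.78 in enterocytes, with the low value in ISC replicate 1, whose peak covered 35.3% of the region, against 75.6% in ISC replicate 2 and 98.6% and 97.4% in enterocytes. The enterocyte mean of 3.39 ± 0.553 and the ISC mean of 2.10 ± 1.4 (SD, n = 2 each) differed by a log2 ratio of 0.69 with overlapping ranges. That ratio was 0.14 without ISC replicate 1 and 1.61 without ISC replicate 2, so it rested on which ISC library was used. Scaled to the shared regions, the ranges did not overlap (1.63-fold). It was rank 68 of the 1911 adult-only regions. The nearest E14.5 peaks were 4278 and 4147 bp away, and those peaks belong to the next region.

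That next region, at 147869130 to 147870553, was the strongest of the Foxa2 locus by its lowest percentile within a group. It held 0.723 and 1.43 RPM at E14.5, 2.41 and 4.58 in ISC and 2.98 and 3.68 in enterocytes, and E12.5 had no peak there or within 24699 bp. All 4 adult libraries lay above both E14.5 libraries, by 3.16-fold in the means and by 2.81-fold when scaled to the shared regions. The E14.5 peaks covered 30.5% and 33.2% of the region and the adult peaks 79.1% to 100%. Their summits lay close together, 546 and 536 bp from the region's start at E14.5 and 578 and 666 bp in ISC, and at 801 and 841 bp in enterocytes. The median peak length of the whole list was 450 and 272 bp in these E14.5 libraries and 474 to 849 bp in the adult ones, and its part in the narrower E14.5 peaks was not tested. RPM sums the tags under a peak, so wider peaks can hold more. The part of peak width in the 3.16-fold difference was not tested either.

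**Figure D2:**
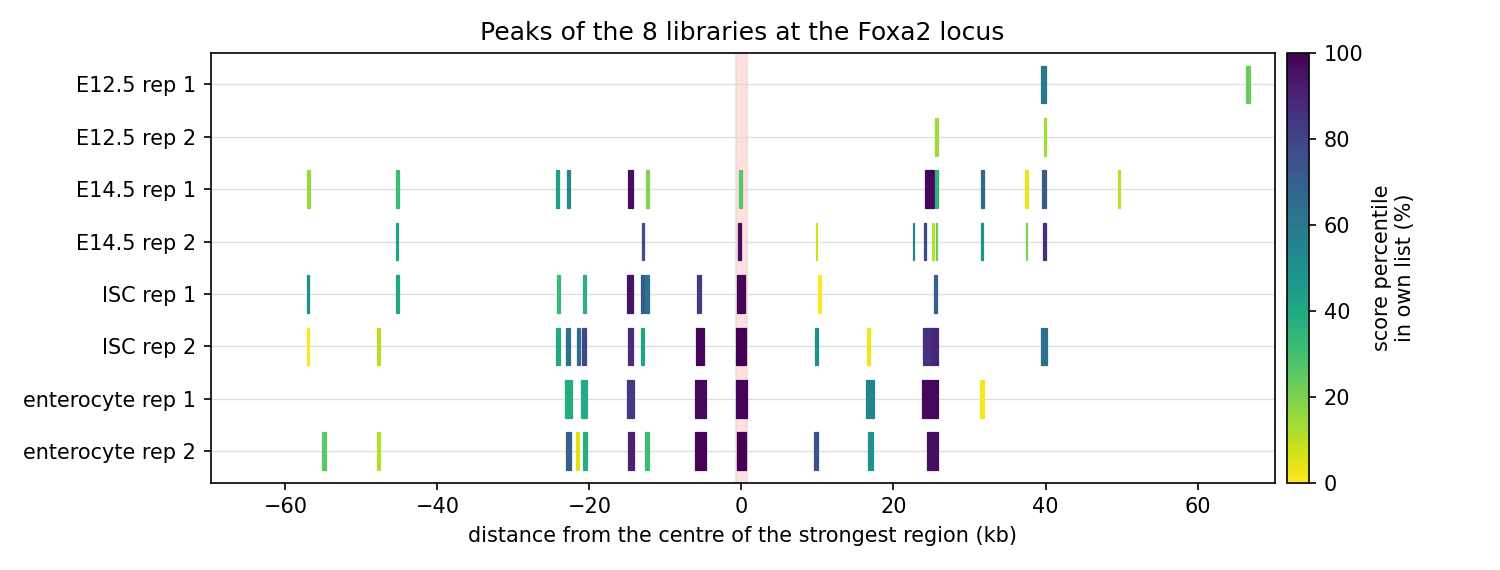
Peaks at the Foxa2 locus, 1 row per library, in kb from the centre of the region at 147869130 to 147870553 (shaded), coloured by score percentile. The E12.5 rows hold 2 peaks each, and the adult rows show 2 dark peaks at and just left of 0.

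The second adult-only region of Foxa2, at 147848763 to 147849509, held 0.740 and 1.18 RPM in ISC and 0.992 and 0.843 in enterocytes, so the cell types overlapped. It is named for its place in this count. At 147854760 to 147855752 the 4 adult libraries and E14.5 replicate 1 had peaks of nearly the same RPM, 1.55 to 1.71, and E14.5 replicate 2 and both E12.5 libraries had none. The region at 147909273 to 147909975 ran the other way, with peaks in all 4 embryonic libraries (0.815 and 0.451 at E12.5, 1.04 and 0.975 at E14.5) and in ISC replicate 2 (1.21), and none in enterocytes. At 147886290 to 147887288, enterocytes (1.29 and 1.02) and ISC replicate 2 (0.636) had peaks and the embryo had none.

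Smaller Foxa2 regions split the groups in other ways. The region at 147901234 to 147901804 was called in both E14.5 libraries, with 0.984 and 0.631 RPM, and in enterocyte replicate 1, with 0.715. That at 147856644 to 147857067 was called in both ISC libraries (0.956 and 0.732) and E14.5 replicate 2 (0.774), and that at 147846696 to 147847494 in both enterocyte libraries (1.08 and 1.15), ISC replicate 2 (1.08) and E14.5 replicate 1 (0.839). At the second of these, the E14.5 value lay within the range of the ISC values. One strong Foxa2 region, at 147893627 to 147895751 and picked after its values were seen, was shared by 7 libraries. It held 0.523 RPM in E12.5 replicate 2, 3.30 and 1.81 at E14.5, 0.894 and 4.07 in ISC and 3.11 and 2.61 in enterocytes, so E14.5 and adult values overlapped. In all, 13 of the 23 Foxa2 regions had both libraries of 1 group and neither of another, 56.5% beside the 35.6% of all regions, and none was called in all 8 libraries. The longest stretch without a peak in any library ran from 147824750 to 147845476, 20.7 kb, and the next from 147919681 to 147936176, 16.5 kb.

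The share of bases under peaks at Foxa2 was below the autosomal share of the same library in the embryo and near it in the adult. At E12.5, peaks covered 0.823% and 0.499% of the interval, 0.309 and 0.259 of the autosomal share, with only 2 peaks in each library. The ratio was 0.673 and 0.494 at E14.5, 0.876 and 1.00 in ISC and 0.985 and 0.974 in enterocytes. E12.5, E14.5 and the adult libraries did not overlap in this ratio, which sets each library against its own list, while the 2 adult cell types did.

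**Figure D3:**
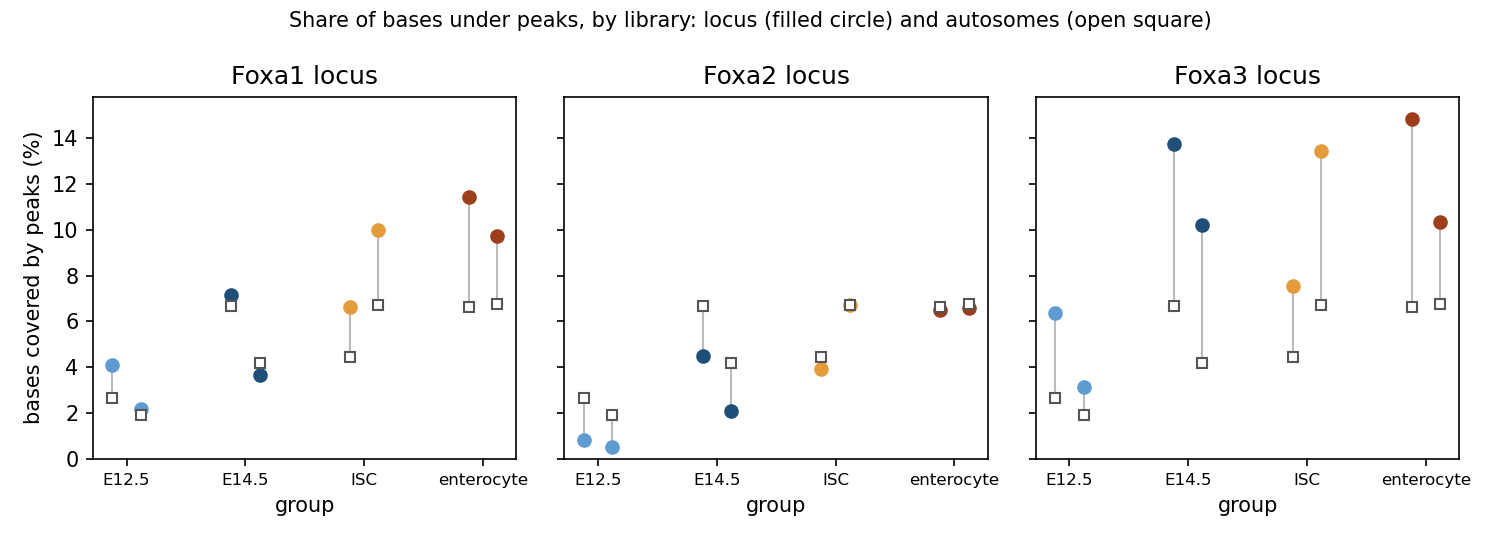
Percent of bases under peaks at each locus (filled circles, coloured by group) and over the autosomes of the same library (open squares), 1 pair per library joined by a line. At Foxa2 the embryonic circles lie below their squares and the adult circles near theirs, and at Foxa3 all 8 circles lie above.

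At Foxa1 this ratio was 1.54 and 1.12 at E12.5, 1.07 and 0.876 at E14.5, 1.49 and 1.49 in ISC and 1.73 and 1.44 in enterocytes. The 4 adult libraries lay above both E14.5 libraries, and E12.5 replicate 1 lay among the adult ones. Peaks covered 20.8 ± 5.95 kb of Foxa1 in ISC and 26.5 ± 3.00 kb in enterocytes, against 7.82 ± 3.44 kb at E12.5 and 13.5 ± 6.16 kb at E14.5 (SD, n = 2 each), with 36.0 ± 11.3, 30.5 ± 4.95, 14.0 ± 4.24 and 36.0 ± 2.83 peaks. E14.5 and ISC thus had the same mean number of peaks with different mean covered lengths. The lengths of their libraries overlapped, at 17.9 and 9.15 kb at E14.5 and 16.6 and 25.0 kb in ISC. With 100 bp either side of each summit in place of whole peaks, the adult excess at Foxa1 was 1.66 kb, against 13 kb with whole peaks. Such intervals give every peak the same width, and the covered length fell on both sides. The adult and embryonic means were 6.68 and 5.025 kb with summit intervals and 23.6 and 10.7 kb with whole peaks.

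At Foxa3 the leading difference had the opposite direction. The region at 19590330 to 19591479 was called in all 4 embryonic libraries while the adult lists lacked it, and the nearest adult peaks were 3558 to 4989 bp away. It held 0.797 and 0.595 RPM at E12.5 and 2.52 and 2.67 at E14.5, so both E14.5 libraries lay above both E12.5 libraries. The ratio of the means was 3.72, and 2.05 when scaled to the shared regions, since those hold a smaller share of E12.5 tags (3.21% and 2.81%) than of the tags of the other libraries (4.94% to 6.66%). At E14.5 its peaks stood at the 99.1 and 99.7 percentile with a fold enrichment of 11.2 and 11.3. At E12.5 the percentiles were 77.6 and 39.2. The E12.5 peaks did not overlap each other: replicate 1 had its peak at 19590330 to 19590851 and replicate 2 at 19591052 to 19591479, at opposite ends of the region. The highest point of the E14.5 peaks lay 280 and 254 bp from the region's start, close to that of E12.5 replicate 1 at 286 bp and away from that of replicate 2 at 888 bp. With presence counted only where peaks cover 50% of a region, neither E12.5 library had it, and it was not embryonic only.

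**Figure D4:**
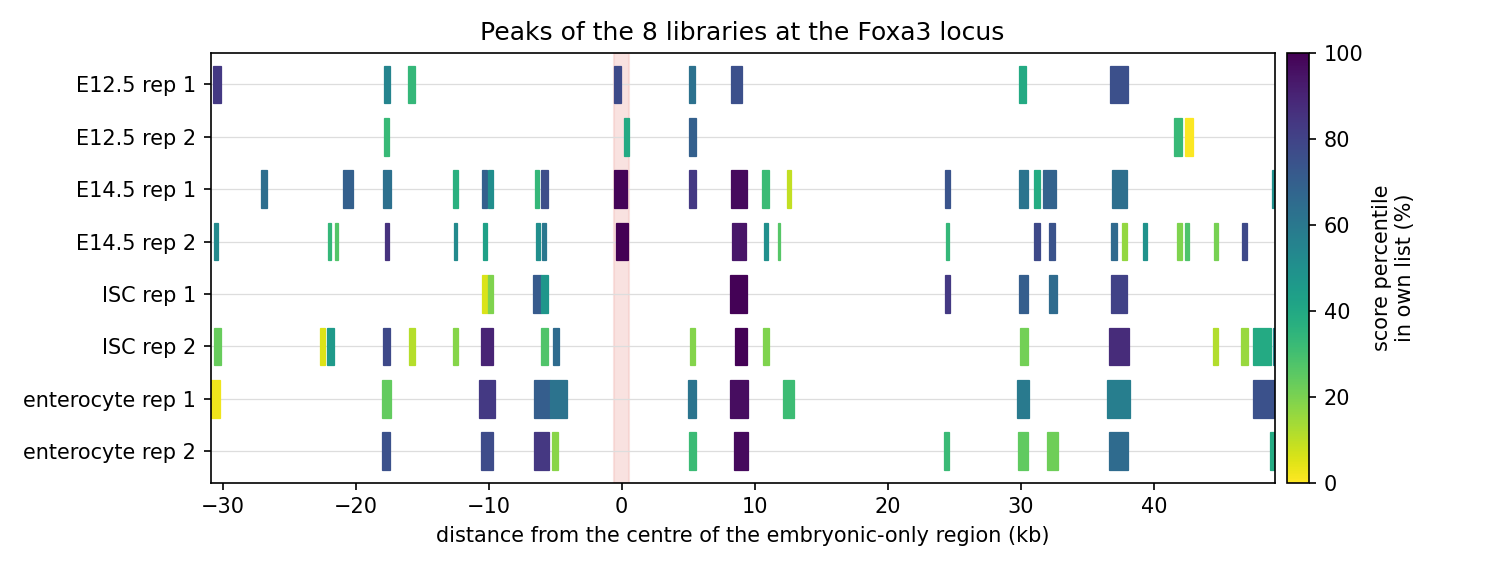
Peaks at the Foxa3 locus, 1 row per library, in kb from the centre of the embryonic-only region (shaded), coloured by score percentile. The E14.5 rows have a dark peak at 0, each E12.5 row a narrower peak on a different side of 0, and the adult rows none.

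Some strong Foxa3 regions outside that one had peaks in both embryonic and adult libraries. From 19599034 to 19600376 a region was called in 7 libraries, with 1.01 RPM in E12.5 replicate 1, 2.98 and 3.53 at E14.5, 3.21 and 3.12 in ISC and 2.65 and 2.55 in enterocytes. E14.5 and the adult libraries overlapped there, and both ISC libraries lay above both enterocyte libraries. This region was picked after its values were seen, for its high percentiles. The regions at 19580208 to 19581362 and 19584237 to 19585486 were called in all libraries but those of E12.5, at 0.602 to 2.07 and 1.08 to 2.10 RPM, with overlapping groups. At 19638355 to 19640819, at the edge of the interval, both enterocyte libraries (4.20 and 2.50), ISC replicate 2 (5.73) and E14.5 replicate 1 (2.23) had peaks.

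At 19622606 to 19623693, both E14.5 libraries (2.37 and 1.43), ISC replicate 1 (1.48) and enterocyte replicate 2 (1.64) had peaks. The region at 19621886 to 19622337 was called at E14.5 alone, with 1.07 and 1.29. Both E14.5 libraries also had peaks at 19578232 to 19578600 (0.665 and 0.573), as did ISC replicate 2 (0.668). At 19615160 to 19615605 they had 0.955 and 0.516, ISC replicate 1 had 0.925 and enterocyte replicate 2 had 0.613. No E12.5 library had a peak in these 4 regions. In all, 10 of the 29 Foxa3 regions had both libraries of 1 group and neither of another, 34.5% and near the 35.6% of all regions, and none was called in all 8 libraries. Peaks covered 1.53 to 2.44 times the autosomal share in every library, with no separation of the groups. The longest stretches without a peak ran from 19603862 to 19615159, 11.3 kb, and from 19615606 to 19620592, 4.99 kb.

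**Figure D5:**
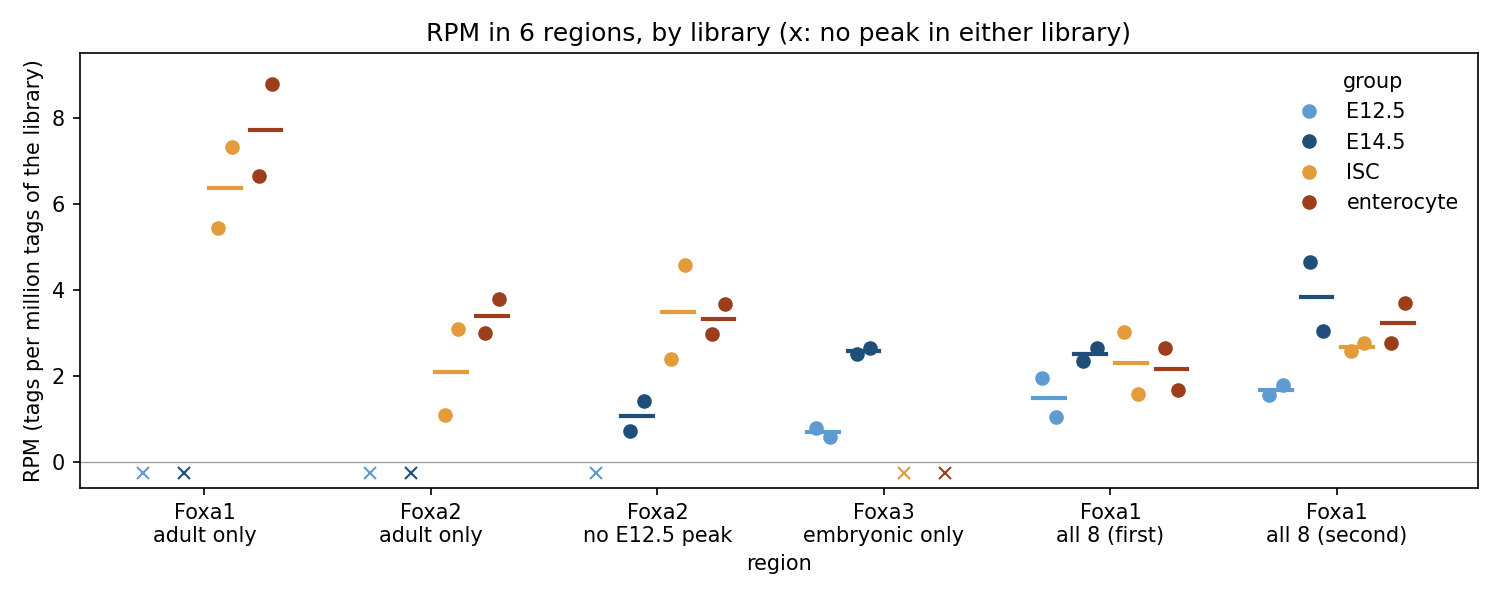
RPM (tags per 1000000 library tags) in 6 regions, 1 point per library and a bar at the mean of the 2 libraries of a group. From left, the regions start at 58649136 (Foxa1), 147863711 and 147869130 (Foxa2), 19590330 (Foxa3), and 58551240 and 58572752 (Foxa1). A cross under the zero line marks a group with no peak in either library and is not a value, and the Foxa1 region on the left, at 5.43 to 8.79, stands above all others.

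Comparing neighbouring stages and cell types asked how methylation changes from fetal gut to stem cell to enterocyte. Of the 119 regions, 19 were called in both E14.5 replicates while E12.5 had no peak, 16.0% beside 23.9% of all regions, and none the reverse, beside 0.276%. Of the 36 with a peak in both E14.5 replicates, 52.8% lacked E12.5 peaks, against 54.7% in the whole series, so the loci were near the background here. The 19 were 8 at Foxa1, 4 at Foxa2 and 7 at Foxa3. With lists of equal length the counts were 1 and 1, so the difference between the directions was not seen. With 1 library of E14.5 left out, the first count was 36 without replicate 1 and 41 without replicate 2. The reverse count was 6 without E12.5 replicate 2, 2 without E12.5 replicate 1 and 1 without E14.5 replicate 1.

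For ISC and E14.5, 9 regions were called in ISC only, 7.56% beside 1.91% of all regions. They were the 7 adult-only regions and those at 58500127 and 58533871 of Foxa1, the latter chosen to complete the count, which had peaks in 1 enterocyte library each. No Foxa3 region was among them. In the other direction 5 regions were called at E14.5 only, 4.20% beside 6.69%. They were the embryonic-only region of Foxa3, the region at 19621886 described above, those at 147901234 and 147907112 of Foxa2, and that at 58591003 of Foxa1, the last 2 of these named to complete the count. The ISC-only count was 22 without ISC replicate 1 and 16 without E14.5 replicate 1, and the E14.5-only count was 9 to 16 without 1 library of either group.

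Between the adult cell types, 1 region was called in enterocytes only, 0.840% beside 1.28% of all regions, and 5 in ISC only, 4.20% beside 3.85%. These shares were near the background. The enterocyte region lay at 58548478 to 58549140 of Foxa1. The ISC regions were those at 58565035 and 58679373 of Foxa1 and at 147812630, 147845477 and 147856644 of Foxa2, all with a peak in at least 1 E14.5 library, and those not described above are named to complete the count. Leaving out 1 library moved these counts to between 3 and 10 and to between 7 and 25, the highest without ISC replicate 2 and without ISC replicate 1.

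Replicates differed at these loci about as they did over the whole series. Of the 119 regions, both E12.5 libraries had a peak in 7 and a single one in 27, 22.7% beside 22.2% of all regions. Both and single E14.5 libraries called 36 and 48, the latter 40.3% beside 38.9%. In ISC the numbers were 35 and 47, the latter 39.5% beside 34.5%, and in enterocytes 37 and 28, the latter 23.5% beside 26.5%. A single library of the 8 called 32 regions, 26.9% beside 28.1% of all regions. The median length of a region was 538 bp at the loci and 557 bp in the series. At the edges of the Foxa1 interval, the region at 58486715 just outside was called in 5 libraries, and that at 58500127 just inside in 3.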

How the data were processed

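MBD sequencing libraries of 8 samples were analysed from 1 peak list per library. The tools named in the submitters' processing notes are Bowtie 1.1.2, SAMtools 1.2 and bcl2fastq 1.8.4, with mm9 as genome build. Per the file headers, MACS 1.4.2 called peaks in each library alone, with no control, with 1.00e-05 as the p cutoff and a regional background of 10000 bp. A peak is therefore relative to its own library, and repeats or copy number gains can be called. The authors deposited tag counts per peak that are not normalized, a score (the negative log10 p-value times 10) and a fold ratio to the local background. Peaks of all lists were merged at 1 bp overlap and counted as present or absent (Python 3.11.15, pandas 2.3.3), after a check on simulated lists. RPM are the tags of all peaks of a region per 1000000 tags of the library, and a library without a peak has no value. Percentiles are ranks of the score within a list.

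The intervals, members and lists were chosen with earlier results of these data known. Regions were named by rule: at each locus up to 8 called in both libraries of 1 group and neither of another, ranked by the lower percentile of the group, the best region called in all 8 libraries, and the 2 longest stretches without a peak. Gene positions were given for GRCm38.p6 only, so genes, exons and promoters were not placed on mm9, and other loci were not analysed here. Tag counts were not tested, because the loci were chosen with these values known, and in most regions some library has no peak and so no value. Alternatives were lists of equal length (84990 peaks), the stricter 50%, merging within 500 bp, 50% cover, presence in at least 1 library, summit intervals, another scaling and leaving out each library.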

Additional observations from a re-analysis of the deposited data

How the results depend on the processing

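The strongest Foxa1 region was adult only under all 13 alternatives, and the strongest adult-only Foxa2 region under 12, the exception being 50% cover. The other 6 regions of the adult-only and embryonic-only classes kept their class under 10 or 11 each. Leaving out a library, or asking for presence in at least 1 library, loosens the rule and could hardly remove a region. All 8 regions stayed under each of these, which is therefore no support. The losses of the other 6 regions all fell under the remaining alternatives. Merging within 500 bp kept 7 of the 8 and 50% cover kept 4. Equal-length lists and the stricter 50%, which keep fewer peaks by construction, kept 3 each.

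With equal-length lists the counts were 1 for E14.5 only and 1 for E12.5 only, 2 for E14.5 only against ISC, 3 for enterocytes only, 2 for ISC only against enterocytes and 2 for adult only. With the stricter 50% they were 6 for E14.5 only against E12.5, 1 for ISC only against enterocytes, 3 for adult only and 0 for embryonic only. Merging within 500 bp gave 2 for ISC only against enterocytes. With 50% cover they were 9 for E14.5 only against E12.5, 3 against ISC, 3 for enterocytes only and 0 for embryonic only. Presence in at least 1 library loosens every count: 58 for E14.5 only and 8 for E12.5 only, 24 for ISC only and 26 for E14.5 only, 11 for enterocytes only and 28 for ISC only, 27 for adult only and 26 for embryonic only. The cause of the other shifts was not tested.

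Leaving out 1 library gave 23 to 41 regions for E14.5 only and 0 to 6 for E12.5 only, 10 to 22 for ISC only and 9 to 16 for E14.5 only, 3 to 10 for enterocytes only and 7 to 25 for ISC only, 7 to 10 for adult only and 1 to 3 for embryonic only. Fewer libraries to satisfy raises a count by construction.

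The adult minus embryonic covered length was 13 kb at Foxa1, 5.55 kb at Foxa2 and 2.54 kb at Foxa3. The pooled SD between libraries of a side was 5.14, 2.23 and 3.19 kb, so the Foxa3 difference was smaller than its SD. The difference was 7.59 kb at Foxa1 with equal-length lists. With summit intervals, which give every peak the same width, it was 1.66 and 0.90 kb at Foxa1 and Foxa2 and reversed to -0.32 kb at Foxa3. The pooled SD was then 2.16, 0.925 and 1.32 kb, so the difference was smaller than its SD at each locus. The log2 adult over embryonic ratios of the 2 regions called in all libraries were 0.16 (58551240) and 0.10 (58572752), with -0.27 and -0.31 when scaled to shared regions. Leaving out 1 library gave -0.053 to 0.33 for the first and -0.10 to 0.47 for the second. No paired analysis was possible because the results are counts and ratios with no fitted test to which a replicate block could be added, and the labels do not say that equal replicate numbers mark a shared litter or day.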
